A study of Arabidopsis thaliana with 12 samples.

Results

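The comparison described here is reading past genes in wild-type Arabidopsis thaliana, measured as RNA-seq reads in a window flanking each gene against reads in the gene itself. A member is a nuclear gene that has a window and at least 100 gene reads in each of the 3 Col-0 libraries. The rule gave 14008 members of the 33985 windows counted. A further 1868 nuclear genes had enough reads but no window, and 19977 windows belonged to genes with fewer reads.

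RNA polymerase II does not stop where a messenger RNA ends. The new transcript is cut and polyadenylated at the 3′ end of the gene, while the polymerase goes on and leaves an uncapped RNA behind it. XRN3 is a nuclear 5′-to-3′ exoribonuclease of Arabidopsis that degrades such uncapped RNA, and nucleases of this kind take part in releasing the polymerase from the DNA. RNA left beyond a gene is therefore usually short-lived.

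The study measured RNA-seq in the xrn3-8 mutant, which carries a mutant allele of XRN3, and in wild-type Col-0, with 3 biological replicates each. Both genotypes were 21-day seedlings grown on soil, and libraries were stranded and depleted of ribosomal RNA. The series' small RNA libraries were not used here. Each RNA-seq table with windows holds whole-number counts, with 62680660 to 81225082 gene reads per library over all 6 libraries. A second table of each library, called the table without windows below, holds genes counted without them. The windows are named 500 plus the gene's identifier. Neither the position of the windows relative to their genes, upstream or downstream, nor any use of the strand in counting is given in the sources used here. Reads in a window can therefore come from RNA that continues from the gene, from a neighbouring gene or from an unannotated transcript, and these cannot be told apart. All ratios below are window reads per 100 gene reads of the same library. They are ratios of reads and are not corrected for the length of the gene.

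XRN3 itself had 1406, 1676 and 1515 gene reads in the xrn3-8 libraries, against 3164, 3262 and 2890 in the Col-0 libraries. The 2 groups did not overlap, also as CPM (21.5, 20.4 and 18.9 in xrn3-8, against 48.3, 48.5 and 48.0 in Col-0). In whole seedlings, fewer cells of a type and less RNA per cell cannot be told apart. The leaf markers RBCS1A, LHCB1.3, RCA and CA1 each had 29378 reads or more in every Col-0 library. The root markers RHD6 and COBL9 had 0 or 1 read, while the phosphate exporter PHO1 had 636 to 671. The flower markers AP1, AP3 and AG had 2 to 32 reads. The seed markers CRA1 and OLEO1 had 72 and 42 reads in replicate 3 and at most 4 in the other two Col-0 libraries. The Col-0 libraries differed from each other beyond sampling noise, with chi-square over degrees of freedom of 14.9, 15.4 and 15.1 over the members' gene counts.

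Wild-type plants had few reads in the windows flanking genes. Over the members, the Col-0 libraries held 0.301, 0.315 and 0.324 window reads per 100 gene reads, a mean of 0.313 ± 0.0117 (SD, n = 3). These ratios rest on 274546 window reads and 87636381 gene reads. The members held 89.5% to 89.9% of all nuclear gene reads in Col-0.

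Most windows were empty or nearly so. In a single Col-0 library 7359, 7048 and 7369 members had no window read. That is more than 50% of the members, so the median ratio was 0 in each library. With the 3 libraries summed, 4565 members (32.6%) had no window read and the median ratio was 0.0658. A summed ratio above 0 and under 0.1 was found at 3309 members (23.6%), one of 0.1 to 1 at 4729 (33.8%) and one of 1 to 10 at 1249 (8.92%). Only 140 members (0.999%) lay between 10 and 100, and 16 (0.114%) had at least as many window reads as gene reads. The 90th percentile of the members' ratios was 1.0, the 95th was 2.23 and the 99th was 11.0.

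**Figure D1:**
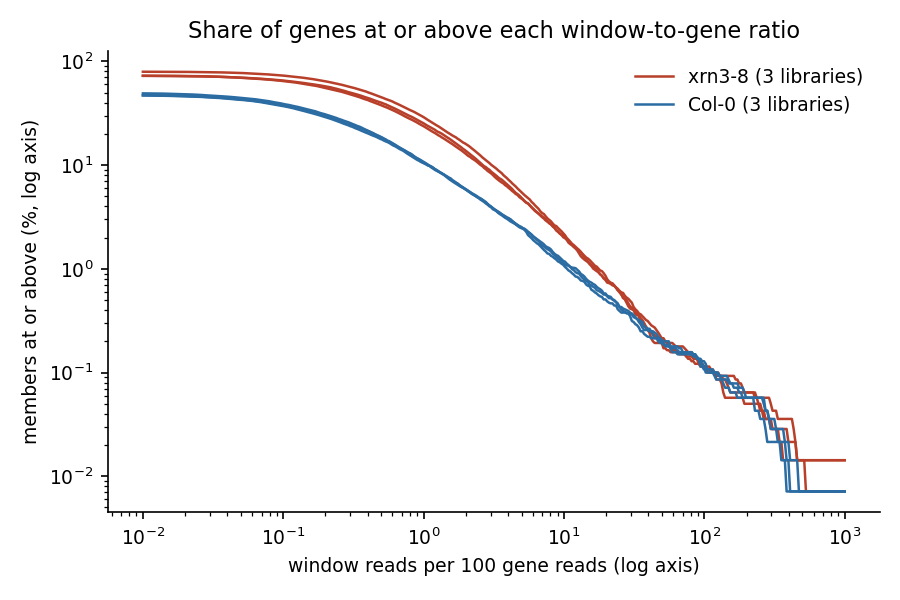
Share of the 14008 members (vertical log axis, %) at or above each window-to-gene ratio (horizontal log axis, window reads per 100 gene reads), 1 line per library. The xrn3-8 lines lie above the Col-0 lines at low ratios, and the lines of both genotypes run together at the largest ratios.

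Reads were called present in a window where each Col-0 library had at least 10. By this rule 773 members (5.52%) had window reads, beside 1028 (3.02%) of all 33985 windows. The member rule asks for gene reads only. The 773 members held 74.7% of the members' window reads and had a median ratio of 2.65. The other 13235 members had 0.0894 ± 0.0031 window reads per 100 gene reads (SD, n = 3).

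Window reads were concentrated in few places. The 2 members with the most window reads held 17.8% of the members' window reads, the first 10 held 34.5%, the first 100 held 55.1% and the first 500 held 70.0%. A set of 56 members held 50% of the reads, and 2680 members held 90%.

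The Col-0 libraries gave similar ratios. Among the 773 members the ratios of 2 libraries had Spearman's rho of 0.966, 0.969 and 0.969. These are descriptions across genes, which are not replicates, and the genes were chosen by reads in all 3 libraries. The highest library had a median of 1.49 times the ratio of the lowest, and 391 members stayed under 1.5 times. In 127 members (16.4%) the libraries were more than 2 times apart. EIN2, a central component of ethylene signalling, was the farthest apart. It had 10, 21 and 45 window reads on 3949, 3956 and 3403 gene reads, a 5.22-fold range of ratios.

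Gene level and window reads were only loosely related. Across the 14008 members, gene reads and window reads had a Spearman's rho of 0.182, and gene reads and the ratio one of -0.139. Both measures share library and depth, and at a given number of window reads a ratio falls as its denominator grows. Among the 773 members the rho of gene and window reads was -0.0384. A member averaged 3.70 window reads per library at 100 to 300 gene reads (2613 members), 6.25 at 300 to 1000 (5260 members), 6.98 at 1000 to 3000 (4132 members), 9.67 at 3000 to 10000 (1604 members) and 11.6 at 10000 or more (399 members).

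The ratio was lower at each step of gene reads. In Col-0 it was 1.82 ± 0.0946 at 100 to 300 gene reads, 1.05 ± 0.0783 at 300 to 1000, 0.404 ± 0.0195 at 1000 to 3000, 0.194 ± 0.00538 at 3000 to 10000 and 0.0443 ± 0.00084 at 10000 or more (SD, n = 3). Windows with no read in any Col-0 library made up 44.6% of the lowest range and 20.3% of the highest. The share with 10 or more window reads in each library was 4.90%, 4.47%, 5.32%, 8.29% and 14.3% in the 5 ranges. None of the 399 members in the highest range reached a ratio of 10.

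**Figure D2:**
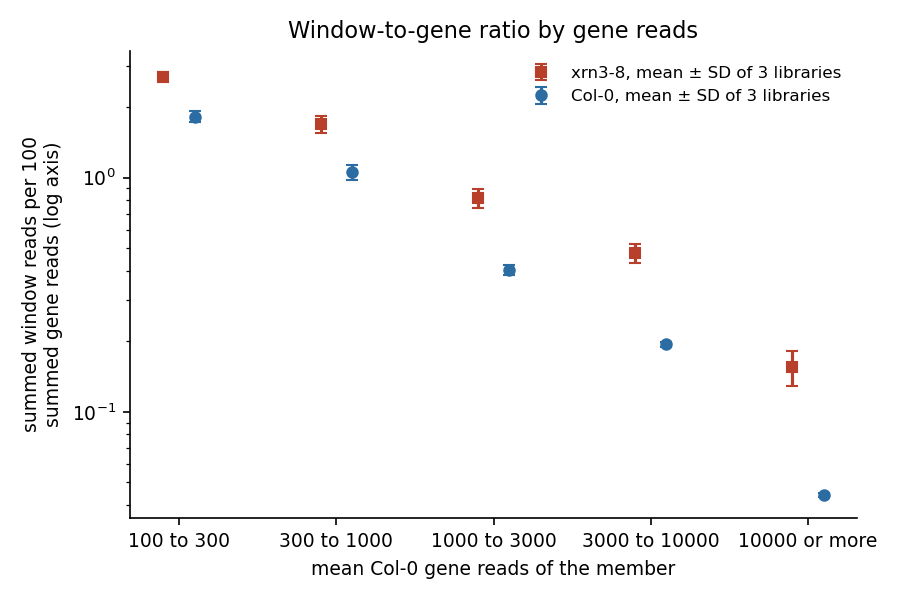
Summed window reads per 100 summed gene reads (vertical log axis) for members grouped by their mean Col-0 gene reads (horizontal axis), as mean ± SD of 3 libraries. In Col-0 the ratio goes down at each step, with 1.82 in the lowest range and 0.0443 in the highest, and xrn3-8 is above Col-0 in each range.

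At the edge of the rule, 182 members had at least 100 and fewer than 110 gene reads in their lowest Col-0 library. Their summed ratio was 1.65, and 51.1% had no window read. The 221 windows of genes just outside, with at least 90 and fewer than 100 reads, had a summed ratio of 2.18, and 49.3% had no window read.

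The most abundant messenger RNAs of the leaf had low window-to-gene ratios, though several had more window reads than the average member. RBCS1A, a small subunit of Rubisco, had the most gene reads of all members, 287696, 314639 and 254534 in Col-0, and its window had 31, 21 and 27 reads. Its ratio was 0.00935 ± 0.00232 (SD, n = 3). CAB1, a chlorophyll a/b-binding protein of the light-harvesting antenna, had 250209, 319609 and 278311 gene reads beside 5, 13 and 5 window reads. LHCB5, another antenna protein, had 202135, 231906 and 178185 gene reads beside 3, 5 and 2. LHCA4, an antenna protein of photosystem I, had 70, 32 and 58 window reads on 164485, 199612 and 168866 gene reads. The antenna protein LHCB3 had 61, 48 and 36 window reads, and CAB2 had 14, 10 and 5. LHCA3, LHB1B2 and GUN5, a subunit of the magnesium chelatase of chlorophyll synthesis, had 10 or fewer window reads in each library. Gene counts of near-identical copies, such as the CAB and RBCS genes, are uncertain, since the handling of reads that match several copies is not stated.

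RCA, the chaperone that keeps Rubisco active, had 114017, 126831 and 113863 gene reads and no window read. At 3 counts over the summed libraries, this allows a ratio of up to 0.000846. The other members at 0 with the most gene reads were TGG1, a myrosinase, the photorespiratory enzymes SHM1 and AGT, the epithiospecifier modifier ESM1, the chloroplast GAPDH subunit GAPB, the glutamate synthase GLU1, the lipoxygenase LOX2, the beta-glucosidase BGLU18 and the antenna protein LHCB2.3. Their summed gene reads ran from 114263 at AGT to 327546 at TGG1, and the limits from 0.00263 at AGT to 0.000916 at TGG1. The limits cover counting error only. Window reads of SHM1 were also 0 in each xrn3-8 library.

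The 37 photosynthesis genes among the members had a median ratio of 0.00896, beside 0.0658 over all members and 0.0106 over the 399 members with 10000 or more gene reads. Of the 38 genes listed, 1 had no window. Their summed ratio was 0.0220 ± 0.00126 (SD, n = 3). By counts their windows held reads more often than those of members in general. Only 3 (8.11%) had no window read in Col-0, beside 32.6% of all members, and 12 (32.4%) had 10 or more in each library, beside 5.52% of all members and 14.3% of those with 10000 or more gene reads. The largest ratio among them was 0.562 ± 0.0474 at PSAH2, a subunit of photosystem I, with 235, 229 and 177 window reads. In the table without windows PSAH2 had fewer gene reads, which puts its ratio at 0.915.

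Other lists also had low ratios. The 19 housekeeping members (of 24 listed, 5 without a window) had a median of 0.0329. The polyubiquitin gene UBQ10 had 9, 10 and 2 window reads on 41228, 43777 and 42090 gene reads. ACT2, an actin, had 0, 0 and 2 window reads on 12376, 13221 and 12600. UBQ5 had more, with 53, 54 and 25 window reads on 12759, 13104 and 10449 gene reads. All 13 histone H3 and H4 members (of 16 listed) had at most 2 window reads in any Col-0 library, and 6 (46.2%) had none, beside 32.6% of all members. Of the 5 metallothionein and catalase members, CAT2, a peroxisomal catalase of photosynthetic cells, had 0 window reads on 36085, 34584 and 37660 gene reads. The list's median was 0.0123. The 16 stress- and touch-inducible members had a median of 0.0323. CAF1b, a deadenylase subunit that shortens poly(A) tails, had the largest ratio of that list, 1.62 ± 0.68, with 17, 11 and 6 window reads.

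Clock genes mostly had few window reads. Of 14 members (16 listed), 1 (7.14%) had 10 or more in each Col-0 library, beside 5.52% of all members. The list's summed ratio was 0.238 ± 0.0258 (SD, n = 3), beside 0.313 over all members. No window read in Col-0 was found at 8 members (57.1%), beside 32.6% of all members. They were the morning genes CCA1 and LHY, the pseudo-response regulators PRR9, PRR7 and TOC1, the blue-light receptor ZTL, PCL1 of the evening complex, and the RNA-binding protein gene CCR1 (also called GRP8). PRR5, a repressor of the same pseudo-response regulator family, had 58, 71 and 58 window reads on 1504, 1587 and 1460 gene reads. Its ratio of 4.10 ± 0.328 was the largest on the list. AT5G64170 had 3, 11 and 17 window reads, and RVE8, a MYB-like transcription factor of the clock, had 7, 2 and 3. AT3G54500, ELF3 and GRP7 had at most 4 in any Col-0 library.

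The genes of 3′ end formation differed among themselves. Of 13 members (15 listed, 2 without a window), 6 (46.2%) had no window read in Col-0, beside 32.6% of all members. They were the cleavage and polyadenylation subunits CPSF30, CPSF100, CPSF160 and FY, and ESP1 and CLPS3. FCA, an RNA-binding protein that promotes use of a proximal poly(A) site at the FLC locus, had 19, 32 and 28 window reads on 828, 1075 and 750 gene reads, the largest ratio of the list at 3.0 ± 0.72. The cytoplasmic exoribonuclease XRN4 had 23, 22 and 16 window reads and a ratio of 0.992 ± 0.16. The cleavage factor gene PCFS4 had 6, 18 and 10 window reads. CSTF64, a subunit of the cleavage stimulation factor, had 14, 3 and 6 window reads on 478, 630 and 517 gene reads, a summed ratio of 1.42 that was 0.785 without replicate 1. FPA, another RNA-binding protein of poly(A) site choice, had 1, 0 and 1 window reads. XRN3 had 4, 2 and 6 window reads and a ratio of 0.132 ± 0.073. No member of any of these lists reached a ratio of 10 in each library, which 0.828% of all members did.

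Some strongly expressed genes did have windows well above the rest of their range. At 10000 or more mean gene reads, AT4G13575 led with 1178, 1245 and 910 window reads on 12669, 14573 and 11071 gene reads, a ratio of 8.69 ± 0.55. AT5G42530, a neighbour of the exoribonuclease gene XRN2 in the gene order, followed with 306, 304 and 289 window reads and a ratio of 1.96 ± 0.391. With the gene reads of the table without windows its ratio was 3.70. AT3G19010 had 1.22 ± 0.26, and OPR3, an enzyme of jasmonate synthesis, had 1.05 ± 0.17 with 97, 176 and 152 window reads. The immune receptor gene SNC1 had 106, 108 and 90 window reads on 18163, 18850 and 16112 gene reads, a ratio of 0.572 ± 0.013. These genes were chosen after their values were seen.

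**Figure D3:**
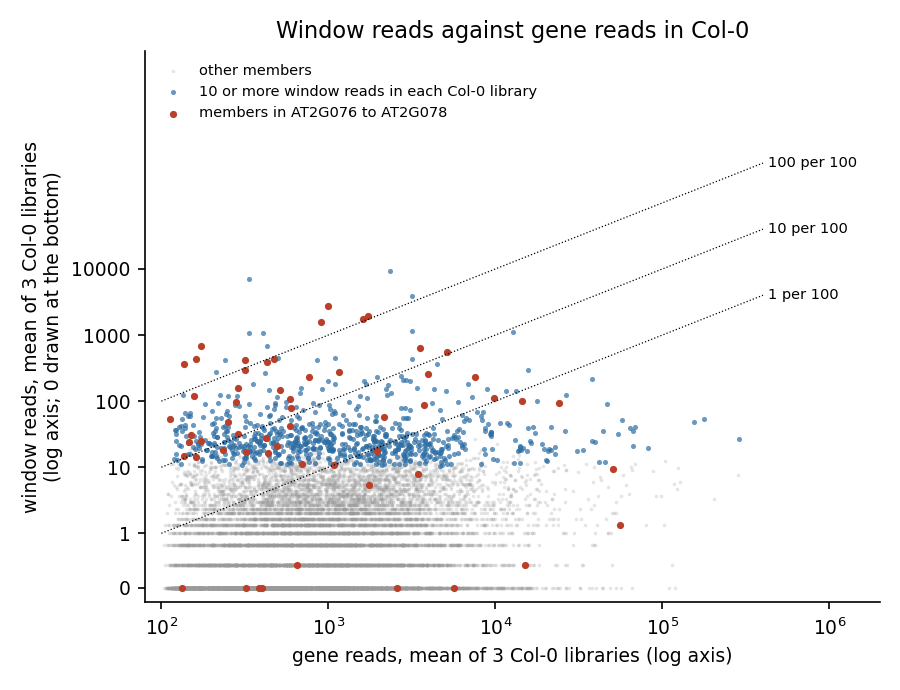
Mean window reads against mean gene reads of the 3 Col-0 libraries for the 14008 members (both log axes, with windows at 0 drawn at the bottom). Dotted lines mark 100, 10 and 1 window reads per 100 gene reads. Members of the chromosome 2 stretch AT2G076 to AT2G078 are in red, and the members above the top line number 16.

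The largest ratios were mostly at genes with few reads. In 116 members (0.828%) the ratio was at least 10 in each Col-0 library. Their median gene reads per library were 244.5, beside 820 over all members. At a given number of window reads a ratio is larger where its denominator is small. Of these members, 89 were protein-coding in the reference annotation. ABP1, an auxin-binding protein, stood far above the others. Its window had 5500, 6840 and 8903 reads in Col-0, while the gene had 370, 376 and 258. The ratios of the 3 libraries, 1486, 1819 and 3451, differed by more than 2 times. ABP1 lies in the gene order between BSM and AT7SL-1, a gene for the RNA of the signal recognition particle, which had 30 gene reads in all Col-0 libraries together.

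Some of the largest windows belonged to genes next to ribosomal RNA genes. The long noncoding RNA AT3G06325 had 8786, 10094 and 8823 window reads on 2332, 2526 and 2192 gene reads, the most window reads of all members. It had no read in the table without windows, so its ratio has no value there, as at 19 members in all. The adjacent rRNA gene AT3G41768 had 6458 reads in all Col-0 libraries together, beside 7050 gene reads of AT3G06325 itself. AT2G01008 had 3769, 4420 and 3587 window reads on 3047, 3379 and 3035 gene reads. Its summed ratio was 124, or 227 with the gene reads of the table without windows. The adjacent rRNA gene AT2G01010 had 14 reads in all Col-0 libraries together, beside 9461 gene reads of AT2G01008. Whether these window reads came from the neighbours was not tested. Of the 116 members, 15 (12.9%) were adjacent to an rRNA, tRNA or other small RNA gene, beside 704 (5.03%) of all members. ABP1 is not among the 15, since the reference annotation classes AT7SL-1 as protein-coding.

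**Figure D4:**
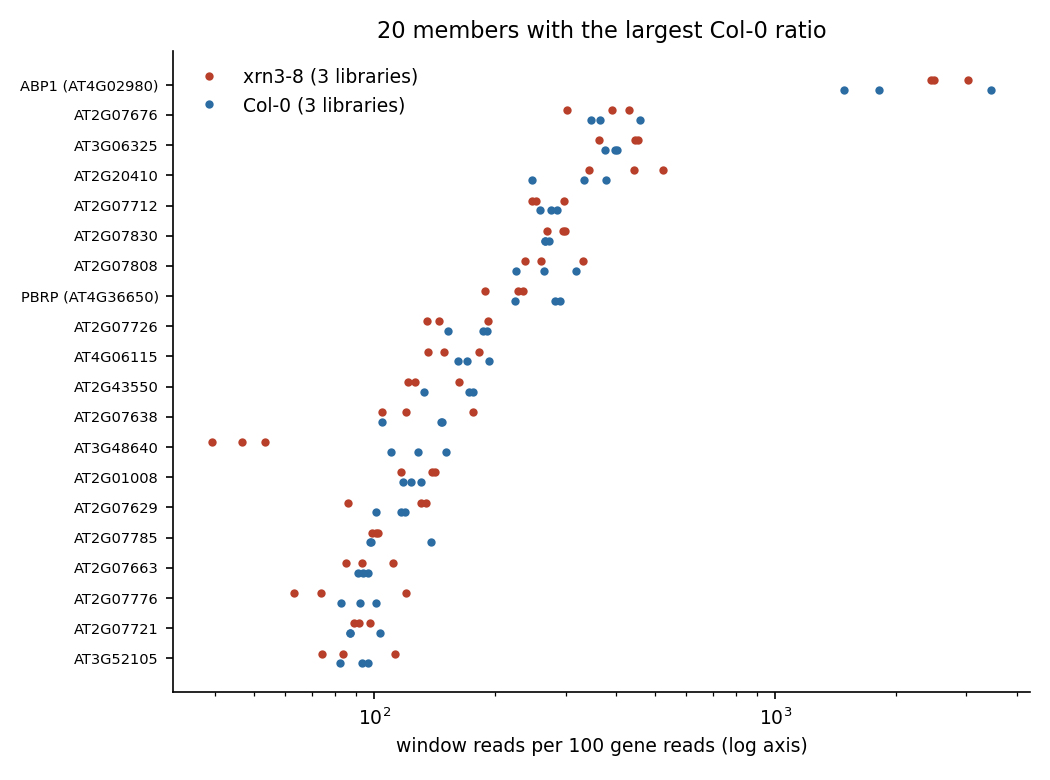
Window reads per 100 gene reads (horizontal log axis) for the 20 members with the largest summed Col-0 ratio among the 773 with window reads, 1 point per library, with xrn3-8 drawn above Col-0 for each gene. ABP1 is the highest, and at AT3G48640 the 3 xrn3-8 points lie below the 3 Col-0 points.

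The other members with about as many window reads as gene reads, or more, were a mixed set. AT2G20410 had 846, 1134 and 1232 window reads on 342, 341 and 326 gene reads. PBRP, a plant-specific relative of the general transcription factor TFIIB, had 934, 1100 and 1170 on 417, 379 and 415. AT2G43550 had 597, 723 and 709 on 339, 420 and 532. At these 3 genes the window had more reads than the gene in every Col-0 library. The long noncoding RNA AT4G06115 had 478, 432 and 359 window reads on 247, 267 and 211 gene reads. It is adjacent to AT4G13575, the leader among strongly expressed genes above, which had 38313 gene reads in all. AT3G48640 had 267, 286 and 265 on 177, 223 and 241. AT3G52105 had 140, 128 and 102 window reads on 145, 137 and 124 gene reads, close to equal numbers. It had 406 gene reads over the 3 libraries here and 19 in the table without windows, where the ratio was 1947. AT2G43550 and AT4G06115 had no read in that table.

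Below these, ratios between 30 and 100 were found at further genes. The long noncoding RNA AT3G06655 had 82, 103 and 83 window reads on 90, 136 and 93 gene reads in xrn3-8, and 489, 483 and 392 window reads on 491, 557 and 455 gene reads in Col-0. Window and gene counts were both lower in xrn3-8, while the ratio was 85.4 ± 8.4 in xrn3-8 and 90.8 ± 7.6 in Col-0. It had no read in the table without windows. AT2G11225 had 1123, 1241 and 1083 window reads on 3085, 3331 and 3089 gene reads in Col-0, and its ratio was 36.2 ± 4.3 in xrn3-8 and 36.2 ± 1.1 in Col-0. AT2G43530 had 347, 415 and 568 window reads in Col-0, a summed ratio of 40.7, or 213 with the gene reads of the table without windows. The pseudogene AT4G07507 had 272, 278 and 249 window reads on 410, 421 and 426 gene reads. The DnaJ protein gene AT3G05345 had 231, 162 and 148 on 409, 339 and 317. AT5G24610 had 373, 495 and 387 on 815, 948 and 819. At these 3 genes the libraries were under 1.5 times apart. The summed ratios of AT4G07507, AT3G05345 and AT5G24610 were 63.6, 50.8 and 48.6, and with the gene reads of the table without windows they were 103, 93.6 and 94.8.

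A neighbour with more reads was common beside the highest ratios. An adjacent gene in the order of the reference had more Col-0 reads than the member itself at 82 of the 116 members (70.7%), beside 6038 of all 14008 (43.1%). Over all members the share was 69.2% at 100 to 300 gene reads and 2.76% at 10000 or more, so it was also compared within ranges. At 100 to 300 gene reads it was 57 of 69 such members (82.6%), beside 1807 of all 2613 members. At 300 to 1000 it was 19 of 36 (52.8%), beside 54.5% of all 5260. At 1000 to 3000 it was 4 of 7 (57.1%), beside 29.2% of all 4132, and at 3000 to 10000 it was 2 of 4, beside 9.29% of all 1604. Among the 773 members with window reads the share was 259 (33.5%), and among the 4565 with none 2147 (47.0%). Across all members the reads of the higher neighbour and the window reads had a Spearman's rho of 0.0165. Strand and distance between genes were not used, and a neighbour's part in a window's reads was not tested.

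A short stretch of chromosome 2 stood apart. Members with identifiers from AT2G076 to AT2G078 lie in the region where a copy of the mitochondrial genome is inserted in the nuclear chromosome. Reads from the 2 copies share much sequence, and the placing of reads with several positions is not stated in the labels. The stretch holds 57 members. Of these, 42 had 10 or more window reads in each Col-0 library, 22 had a ratio of at least 10 in each, and 6 had no window read. They held 44454 window reads, 16.2% of the members' window reads, and 0.787% of their gene reads. Their ratio was 7.01 ± 0.295 in xrn3-8 and 6.46 ± 0.194 in Col-0 (SD, n = 3 each).

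Windows with many reads and windows with few stood side by side there. AT2G07712, a transcribed pseudogene, had 2741, 2771 and 2661 window reads on 995, 971 and 1025 gene reads. AT2G07676 had 537, 1019 and 507 on 155, 221 and 139, and no gene read in the table without windows. AT2G07629 had 1813, 2039 and 1934 on 1791, 1753 and 1622. Its ratio was 112 summed, or 520 with the gene reads of the table without windows. AT2G07687 had 104, 110 and 86 window reads on 15031, 15519 and 12525 gene reads, a ratio of 0.696 ± 0.012. In the 20 largest ratios of all members, 11 came from the stretch. The genes of the mitochondrial genome itself held 0.594% to 0.620% of Col-0 gene reads. Outside the stretch the members' ratio was 0.606 ± 0.0624 in xrn3-8 and 0.265 ± 0.0114 in Col-0.

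Gene classes of the reference differed in how often windows were read. Among 13790 protein-coding members, 717 had 10 or more window reads in each Col-0 library, and the summed ratio was 0.249 ± 0.0107. Of 89 long noncoding RNA members, 14 did, with a median ratio of 0.453. Their summed ratio of 23.7 ± 1.73 rests on AT3G06325, which alone had 27703 of 32149 window reads. Of 67 pseudogenes, 24 did, with a median of 1.90, and of 52 transcribed pseudogenes 16 did, with a median of 0.555. The classes were not counted apart from the chromosome 2 stretch. There AT2G07712 alone had 8173 of the 19963 window reads of transcribed pseudogenes. The 5 chromosomes had median ratios of 0.0614 to 0.0711. Their summed ratios were 0.162 on chromosome 1, 0.652 on 2, 0.340 on 3, 0.402 on 4 and 0.182 on 5, and 0.342 on chromosome 2 without the stretch. Without AT3G06325 the value of chromosome 3 was 0.176, and without ABP1 that of chromosome 4 was 0.242. The members left out were chosen after their values were seen.

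Windows held more reads in xrn3-8 than in Col-0. Over the members, the xrn3-8 libraries held 0.653, 0.615 and 0.732 window reads per 100 gene reads, against 0.301, 0.315 and 0.324 in the Col-0 libraries. The means were 0.667 ± 0.0595 in xrn3-8 and 0.313 ± 0.0117 in Col-0 (SD, n = 3 each), a 2.13-fold difference. All xrn3-8 libraries were above all Col-0 libraries, and the two-sided exact permutation test gave p = 0.1, the smallest p that 3 against 3 libraries allow. Members with no window read numbered 3847, 3806 and 2874 in the xrn3-8 libraries and 7359, 7048 and 7369 in the Col-0 libraries. By range of gene reads the ratio was 2.70 in xrn3-8 and 1.82 in Col-0 at 100 to 300, and 0.155 in xrn3-8 and 0.0443 in Col-0 at 10000 or more.

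The change of each member's window-to-gene ratio was tested with edgeR's quasi-likelihood test on all pairs with enough window reads, with Benjamini-Hochberg adjustment at 0.05. Of 2423 members tested, 1347 (55.6%) were higher in xrn3-8 and 7 (0.289%) were lower. The window filter used the reads of both genotypes, so a window nearly empty in Col-0 could enter through its xrn3-8 reads. Such a window could hardly be called lower. The filter thus favoured calls of higher, in these shares and in those of the lists below. Over all 2752 pairs tested the shares were 51.1% higher and 0.4% lower, and most of those pairs are the members themselves. The median log2 fold change was 1.33 over the tested members and 1.16 over all pairs. A further 11585 members had too few window reads to be tested.

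Of the 773 members with window reads in Col-0, 194 (25.1%) were higher in xrn3-8 and 7 were lower, with a median log2 fold change of 0.40. These members were chosen for Col-0 window reads, which enter the same test, so their share is a description and carries no comparison with the rest. Of the 94 members with a Col-0 ratio of at least 10 outside the chromosome 2 stretch, 2 were higher and 4 were lower. Those 94, like the 20 members with the largest ratio, were chosen for a high Col-0 ratio, the quantity tested. Their counts are therefore descriptions too. In the stretch 45 members were tested, of which edgeR called 1 higher and 0 lower (median log2 fold change 0.00). At an unadjusted p below 0.05, 0 were lower, and DESeq2 called 0 in either direction. Of the 20 members with the largest ratio only AT3G48640 passed the threshold. ABP1 had 8855, 9738 and 12201 window reads in xrn3-8, against 5500, 6840 and 8903 in Col-0, and its ratio did not pass the test (log2 fold change 0.34, SE 0.35, adjusted p = 0.461).

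**Figure D5:**
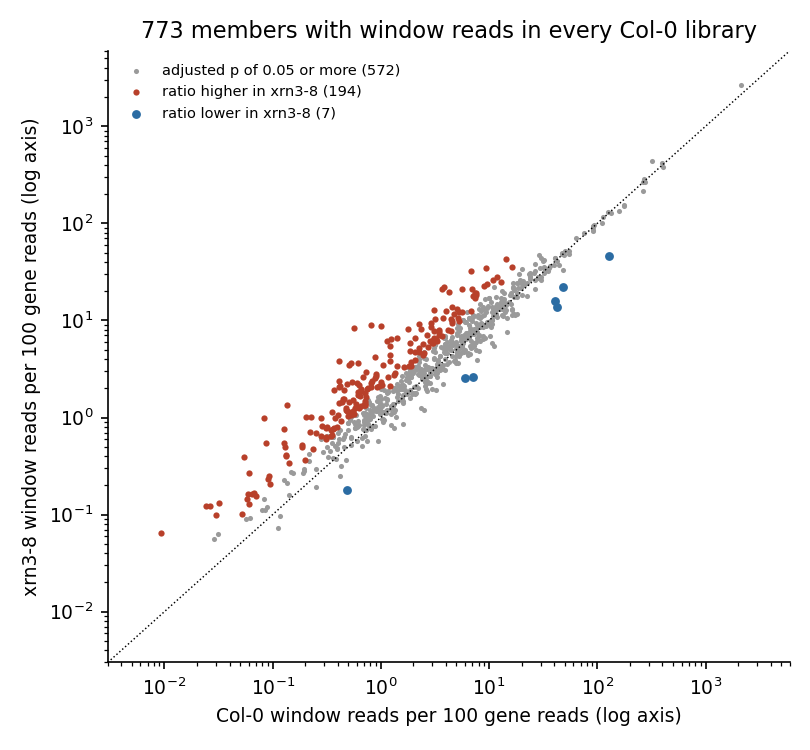
Summed window reads per 100 gene reads in xrn3-8 (vertical log axis) against Col-0 (horizontal log axis) for the 773 members with 10 or more window reads in each Col-0 library, 1 point per member, with the line of equal ratios dotted. The 194 members called higher in xrn3-8 lie above the line, mostly at low Col-0 ratios, and the 7 called lower lie below it.

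The 5 largest increases among the 773 members were at LURP1, AT1G54410, AT5G60680, ECS1 and AT2G41410. LURP1, named for its late upregulation in response to a downy mildew pathogen, had 227, 313 and 254 window reads in xrn3-8, against 33, 17 and 14 in Col-0. Its ratio was 8.41 ± 1.55 in xrn3-8 and 0.571 ± 0.277 in Col-0 (SD, n = 3 each), and its log2 fold change was 3.91 ± 0.385 (SE, adjusted p = 2.2e-06). The Col-0 ratio of LURP1 was 0.975 with gene reads of the table without windows. The small dehydrin AT1G54410 had a ratio of 0.982 ± 0.107 in xrn3-8 and 0.0843 ± 0.0251 in Col-0, a log2 fold change of 3.55. ECS1, with 174, 194 and 178 window reads in xrn3-8 and 33, 39 and 35 in Col-0, had one of 3.32. Its gene reads were 11188, 14015 and 15236 in xrn3-8 and 24848, 26812 and 26992 in Col-0, so part of the change lay in the gene reads. The Col-0 ratio of ECS1 was 0.136, or 0.241 with gene reads of the table without windows.

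The 7 members with a lower ratio in xrn3-8 had few gene reads, apart from NUDT3. With no filter on window counts none of the 7 passed the threshold, at similar fold changes (adjusted p = 0.128 at AT3G48640 and 0.117 at NHX8 in edgeR's test). AT3G48640 had 90, 107 and 99 window reads in xrn3-8, against 267, 286 and 265 in Col-0, and the groups did not overlap. Its gene reads were 192, 201 and 251 in xrn3-8 and 177, 223 and 241 in Col-0. For the ratio, the log2 fold change was -1.48 (SE 0.302, adjusted p = 0.00075). NHX8, a member of the sodium/proton exchanger family, had a ratio of 14.3 ± 5.06 in xrn3-8 and 41.7 ± 14.8 in Col-0 (log2 fold change -1.55). At AT1G11340 the window had 26, 59 and 68 reads in xrn3-8 and 59, 68 and 49 in Col-0, while the gene had 302, 308 and 358 in xrn3-8 and 136, 144 and 152 in Col-0. There the difference in the ratio (log2 fold change -1.42) lay in the gene reads. The same held at ENODL15, an early nodulin-like protein, with 106, 130 and 153 window reads in xrn3-8 and 137, 113 and 113 in Col-0 (log2 fold change -1.12). The other three were AT3G57700, NUDT3 and RPA1A. The call of RPA1A was lost without Col-0 replicate 2 and without xrn3-8 replicate 1 or 2. That of NUDT3 was lost without replicate 2 or 3 of either genotype, and that of AT3G57700 without any 1 library other than Col-0 replicate 3. Neither NUDT3 nor AT3G57700 passed in DESeq2 (adjusted p = 0.0791 and 0.0708), and NUDT3 did not pass with a replicate block (adjusted p = 0.0798).

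Most photosynthesis genes that could be tested had a higher ratio in xrn3-8. Of 29 photosynthesis members tested, 24 were higher, beside 55.6% of all tested members, and 0 were lower in edgeR's test, with 0 lower also at an unadjusted p below 0.05 and in DESeq2. Their median log2 fold change was 2.34, beside 1.33 over all tested members. These test results were not compared within ranges of gene reads. The window of CAB1 had 59, 115 and 169 reads in xrn3-8, against 5, 13 and 5 in Col-0 (log2 fold change 3.76 ± 0.536, SE, adjusted p = 4.15e-05). RBCS1A had 121, 151 and 220 in xrn3-8, against 31, 21 and 27 in Col-0 (log2 fold change 2.76). Gene reads enter the ratio too. The antenna gene LHCB2.1 had 35089, 39234 and 34914 in xrn3-8 and 65541, 76576 and 64558 in Col-0, while those of CAB1 overlapped between the groups. The list's summed ratio was 0.0784 ± 0.0221 in xrn3-8 and 0.0220 ± 0.00126 in Col-0. Over the 399 members with 10000 or more gene reads it was 0.155 in xrn3-8 and 0.0443 in Col-0. In xrn3-8 the list was still below the members' mean of 0.313 in Col-0. All 9 stress- and touch-inducible members tested were higher. No member of that list was called as having window reads in Col-0, so this count leans on the window filter. HSC70-1, a cytosolic heat shock cognate chaperone, had 151, 217 and 238 window reads in xrn3-8, against 2, 1 and 3 in Col-0 (log2 fold change 6.10). CAF1a, the paralogue of CAF1b, had 124, 111 and 274 in xrn3-8, against 0, 1 and 1 in Col-0.

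The counts of the shorter lists stand beside the same 55.6% of all tested members. Of 8 housekeeping members tested, 6 were higher, with 146, 255 and 225 window reads of UBQ10 in xrn3-8, against 9, 10 and 2 in Col-0 (log2 fold change 4.91). All 3 metallothionein and catalase members tested were higher, among them MT2A, a metal-binding metallothionein, with 142, 214 and 261 in xrn3-8 and 3, 0 and 2 in Col-0. That list also had no member with 10 or more window reads in each Col-0 library, so its count leans on the window filter. Of 3 clock members tested, the RNA-binding protein genes GRP7 and CCR1 were higher. GRP7 had 188, 244 and 323 window reads on 6085, 5952 and 5953 gene reads in xrn3-8, against 0, 2 and 0 on 769, 1195 and 934 in Col-0. The window of CCR1 had 61, 115 and 104 reads in xrn3-8 and none in Col-0. GRP7 and CCR1 entered the test through these xrn3-8 reads. PRR5, the clock gene with the most window reads in Col-0, had a ratio of 5.99 ± 0.52 in xrn3-8 and 4.10 ± 0.328 in Col-0 and did not pass the test (log2 fold change 0.54 ± 0.301, SE, adjusted p = 0.149). Of 5 members of 3′ end formation tested, only FPA was higher, with 11, 15 and 19 window reads in xrn3-8 and 1, 0 and 1 in Col-0. FCA had a ratio of 3.28 ± 0.84 in xrn3-8 and 3.0 ± 0.72 in Col-0, and XRN4 one of 1.57 ± 0.36 in xrn3-8 and 0.992 ± 0.16 in Col-0. No histone member had enough window reads to be tested. Their summed ratio was 0.615 ± 0.182 in xrn3-8 and 0.0210 ± 0.00899 in Col-0.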

How the data were processed

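RNA-seq counts of 3 xrn3-8 and 3 Col-0 libraries were used. The deposited tables hold whole-number counts per gene and per flanking window, not normalized, as the values show. HISAT2, HTSeq, DESeq2, bedtools and the TAIR10 build are named in the submitters' processing notes; the notes name no versions. Unassigned reads (21.6% to 25.4%) were left out. Gene and window counts came from the same table. Against the table without windows, some members held fewer gene reads in the Col-0 libraries (0.120%, 0.120% and 0.115% of reads) and others more (3.81%, 3.80% and 3.67%); the labels and processing notes do not say why. Gene classes, names and order came from RefSeq's TAIR10.1 table. Its coordinates set the order of the genes and are not printed.

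The ratio test was edgeR 4.0.16 in R 4.3.3, quasi-likelihood, two-sided, with terms for library, region and the product of region and genotype, scaled by TMM factors of the gene rows. Pairs passed filterByExpr on the window (minimum count 10) with a mean gene count of at least 10. Ratios and the exact permutation test used Python 3.11.15 and scipy 1.17.1. DESeq2 1.42.0 was an alternative. On simulated data with a fixed dispersion and 200 changed pairs, the edgeR test recovered 35% of 2-fold and 86% of 4-fold changes. It called 0.235% of unchanged pairs. A member that did not pass the test can therefore still differ in its ratio.

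Named genes were those with the largest ratio (20), the most window reads (10), the most gene reads (10), the most gene reads at 0 (10), the largest changes (5 each way), XRN3, members of the gene lists and adjacent genes. Members and lists were chosen with earlier results of these data known. The planned list of ribosomal protein genes needs gene descriptions and was not used.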

Additional observations from a re-analysis of the deposited data

Results flagged for a closer look

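Windows of genes below the rule of 100 gene reads were outside the comparisons above, yet they held 23.7% ± 0.421 of all Col-0 window reads (SD, n = 3), or 85374 reads over the 3 libraries. No read was counted in 83.1% of these 19977 windows. Reads numbered at least 10 in each library in 255 (1.28%), and in 159 of those the window had more reads than its gene in each library. The 5 windows with the most reads were those of AT3G08165 (4142 reads, beside 105 in the gene), AT2G07763 (4072 reads, 0 in the gene), AT2G33420 (3258 reads, 2 in the gene), AT3G47348 (3253 reads, 51 in the gene) and SDH1-2 (3000 reads, 7 in the gene).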

How the results depend on the processing

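The Col-0 ratio of 0.313 was 0.326 at a gene count minimum of 50, 0.187 at 1000, 0.269 with gene reads of the table without windows, 0.209 without members next to a gene with more reads, 0.249 in protein-coding members and 0.265 without the chromosome 2 stretch (chosen after seeing the data, as were the left-out libraries for the relations across genes). In that order the median of 0.0658 was 0.0647, 0.0406, 0.0658, 0.0521, 0.0640 and 0.0652. It was 0.0504 to 0.0563 when each library was left out in turn. The 773 members with window reads became 385 at a minimum of 1000 and 514 without such neighbours, and 1462 or 368 at a window minimum of 5 or 20. The 116 members at 10 per 100 or more became 9 and 34, and 240 or 61 at a threshold of 5 or 20. The 4565 members at 0 became 1454 and 2418. Fewer genes enter some of these. With no filter on window counts, 3022 members were higher in xrn3-8 in edgeR's test and 0 lower (30 lower at an unadjusted p below 0.05). DESeq2 gave 1236 higher and 5 lower. Leaving out single libraries gave 1303 to 1849 higher and 4 to 12 lower, with 4 without Col-0 replicate 2 and 12 without xrn3-8 replicate 2. The labels tie same-numbered libraries by number only. Their deviations correlated at 0.0134, -0.0448 and 0.0396 in the ratio and at 0.0484, 0.131 and 0.0875 in gene counts, so not every pair exceeded 0.1; 2 of 6 libraries correlated best with their own number in the ratio and 6 of 6 in gene counts, a hint from the data and not the design. A replicate block gave 1267 higher and 6 lower. The difference of 0.353 between xrn3-8 and Col-0 stayed between 0.271 and 0.379. Windows with few reads limit single ratios.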
